A study of Homo sapiens with 6 samples.

Results

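Surface receptors of monocytes and macrophages were followed across all 6 libraries of a LAMP5 knockdown experiment. The set held 44 listed genes of the LILR, SIGLEC, C-type lectin, SIRP, CD300 and scavenger groups, with chemoattractant receptors and a few other leukocyte surface proteins, and it was taken by gene symbol from a table of 39771 rows. Of the 44 genes, 43 had a row by their Ensembl identifier, and MRC1 was not matched and is not analysed here. The cells were MOLM-13, a human acute myeloid leukaemia line of monocytic character with the MLL-AF9 translocation, kept in RPMI medium with serum. One group carried a lentiviral hairpin against LAMP5 (shLAMP5, 4 libraries) and the other a non-targeting hairpin (shNT, 2 libraries), and all cells were selected with puromycin. The sources used here do not tell which hairpin sequence went into which of the 4 shLAMP5 libraries, nor the time of each harvest. It is also not stated whether replicate libraries were grown as independent cultures, and a p-value then reflects only library-to-library spread, which may be technical.

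Most of these receptors tune the response of a myeloid cell to what touches its surface. Inhibitory members carry an immunoreceptor tyrosine-based inhibitory motif (ITIM) in the cytoplasmic tail and recruit the phosphatases encoded by PTPN6 and PTPN11. Many activating members, though not all, have short tails and signal through the adaptors encoded by TYROBP (DAP12) or FCER1G. These adaptors carry an activating motif (ITAM) read by the kinase SYK. LILR proteins bind mainly MHC class I and related molecules, SIGLEC proteins bind sialic acid, C-type lectins bind glycans of microbes and of damaged cells, and scavenger receptors take up modified lipoproteins and cell remnants. As monocytes mature, many of these receptors are gained, and the transcription factor PU.1 is a well-known regulator of their promoters.

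Promoter sequences are shown first, because the letters of the promoters were not used to choose the members and a short PU.1 core motif was found in some of them and not in others. RefSeq windows (build GRCh38.p14) of 250 bases that end just before the annotated gene start were found for 20 of the 44 genes. The 6 shown belong to receptors whose values are described in the text, chosen after the values and the matches were seen. Capitals mark GAGGAA or its reverse complement TTCCTC.
LILRB4, chr19:54662735-54662984, plus strand: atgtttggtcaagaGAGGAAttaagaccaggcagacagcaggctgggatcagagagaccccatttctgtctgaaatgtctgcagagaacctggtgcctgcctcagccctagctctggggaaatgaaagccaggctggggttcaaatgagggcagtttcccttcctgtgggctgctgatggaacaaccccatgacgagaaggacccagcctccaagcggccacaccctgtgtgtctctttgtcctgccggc
CD86, chr3:122055112-122055361, plus strand: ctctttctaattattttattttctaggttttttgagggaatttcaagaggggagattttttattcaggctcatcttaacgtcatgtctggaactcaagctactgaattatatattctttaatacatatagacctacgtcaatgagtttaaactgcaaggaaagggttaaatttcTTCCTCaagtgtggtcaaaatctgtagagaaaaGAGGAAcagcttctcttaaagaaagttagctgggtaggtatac
CD36, chr7:80601957-80602206, plus strand: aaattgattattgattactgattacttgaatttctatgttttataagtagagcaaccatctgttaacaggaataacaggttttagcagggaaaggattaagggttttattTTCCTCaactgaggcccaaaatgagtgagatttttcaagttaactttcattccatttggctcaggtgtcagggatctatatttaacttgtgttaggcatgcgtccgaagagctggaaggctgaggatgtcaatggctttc
SIGLEC10, chr19:51417643-51417892, minus strand: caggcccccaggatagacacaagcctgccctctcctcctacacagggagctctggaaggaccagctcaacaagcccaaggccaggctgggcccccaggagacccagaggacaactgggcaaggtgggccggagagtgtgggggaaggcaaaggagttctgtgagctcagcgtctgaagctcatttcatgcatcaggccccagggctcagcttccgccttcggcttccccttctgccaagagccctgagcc
CD300A, chr17:74466123-74466372, plus strand: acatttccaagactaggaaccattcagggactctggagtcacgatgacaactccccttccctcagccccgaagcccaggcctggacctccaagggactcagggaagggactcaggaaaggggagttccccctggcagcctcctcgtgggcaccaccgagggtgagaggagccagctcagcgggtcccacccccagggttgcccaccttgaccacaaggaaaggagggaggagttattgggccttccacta
FPR1, chr19:51751879-51752128, minus strand: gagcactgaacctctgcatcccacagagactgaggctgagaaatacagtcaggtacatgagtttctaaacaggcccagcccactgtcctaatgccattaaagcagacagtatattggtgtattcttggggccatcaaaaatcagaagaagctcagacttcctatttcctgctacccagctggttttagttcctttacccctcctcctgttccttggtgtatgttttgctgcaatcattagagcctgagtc

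LILRB4 held 1 match, whose first base was at -236 from the start, CD86 held 2, at -76 and -43, and CD36 held 1, at -140. The windows of SIGLEC10, CD300A and FPR1 held none of these letters. The PU.1 core GAGGAA, searched on both strands, was in 9 of the 20 member windows (45.0%), against 23.3% of 24884 windows of all genes, and this difference was not tested. Besides LILRB4, CD86 and CD36, the members with it were LILRB3, CD163, CLEC4E, CLEC5A, LILRA5 and STAB1. All but LILRB3 of these further members were too low to be tested for expression, as described below. The C/EBP-like motif TTGCNNAA was in 15.0% of member windows and 9.2% of all windows, the RUNX motif TGTGGT in 10.0% and 11.1%, an interferon regulatory factor-like motif in 5.0% and 3.1%, and the AP-1 motif TGANTCA in 5.0% and 6.7%. The RUNX letters were in the windows of CD300A and CD86. CD36 has 6 windows in the RefSeq table, CD86 and CD300A have 2 each, and the one at the annotated gene start was used. The matches describe these letters only.

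The level of each receptor is given in TPM (a transcript's share of its library, corrected for transcript length). A gene was tested when it reached 1 TPM in at least 2 libraries, and 29 of the 44 receptors did. The 14 others with a row reached at most 2.15 TPM in any library. Of the 29 tested, 20 were at or above 1 TPM in both shNT libraries. In 3 (SIGLEC5, CLEC10A and C5AR1) this held only in shLAMP5 libraries, so that their inclusion already depended on a higher shLAMP5 value. The other 6 (LILRB1, LILRB3, SIGLEC9, CLEC7A, MSR1 and FPR1) reached 1 TPM in 1 shNT library. They were tested only because at least 1 shLAMP5 library reached it too. Each log2 fold change compares shLAMP5 with shNT after log2(TPM + 1), positive where shLAMP5 was higher, and this scale makes differences of low genes look smaller than they are. Each adjusted p is from limma with Benjamini-Hochberg adjustment over all 13072 genes tested.

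As a check of the labels, LAMP5 averaged 226 ± 79.4 TPM over the 2 controls and 75.4 ± 9.89 TPM over the 4 knockdown libraries (mean ± SD). All 4 shLAMP5 libraries lay below both controls, yet LAMP5 itself was not called (log2 fold change -1.54, SE 0.25, limma adjusted p 0.252). Each library summed to between 897026 and 912565 TPM, and the read depth is unknown. The library shLAMP5 2 stood apart from the rest: it had the lowest value of the 6 libraries in 44.1% of all genes tested, and its median scaling factor was 0.8264 against 0.9975 to 1.0651 in the others. All 10 myeloid markers were tested, and they summed to 6108 and 13644 TPM in shNT and to between 4260 and 17090 TPM in shLAMP5, with shLAMP5 2 the lowest. LYZ, which encodes lysozyme and was the most abundant of them, had 1984 and 6062 TPM in shNT 1 and 2, and 9730, 1397, 5119 and 9415 TPM in shLAMP5 1 to 4. Of the 10 markers, 7 had a positive log2 fold change, where 49.3% of all genes tested did, and limma called 0. CSF3R, CD68, CSF1R and FCGR1A (1.09, 1.17, 1.16 and 0.75) lay above both controls in all 4 shLAMP5 libraries, where 8.25% of all genes did. MPO, PRTN3 and ELANE had negative values (-0.80, -0.25 and -0.15). Receptor values with shLAMP5 2 left out are given below, and why this library stood apart was not tested. Summed over their lists, B cell markers reached at most 1.01 TPM in shNT and 1.82 TPM in shLAMP5, erythroid markers 0.571 and 1.17 TPM, and megakaryocyte markers 0.72 and 1.48 TPM, with HBA2, PF4 and PPBP at 0 in every library. The T cell list summed to between 2.42 and 4.07 TPM in shNT and between 2.04 and 9.47 TPM in shLAMP5, most of it CD3D, while CD3E stayed at or below 0.0489 TPM. The NK cell list, at 69.5 to 103 TPM in shNT and 110 to 192 TPM in shLAMP5, was mostly NKG7, whose 4 shLAMP5 values, 90.1 to 173 TPM, lay above the 57.0 and 88.3 TPM of the controls. GNLY, which encodes the granule protein granulysin, also lay above both controls throughout, at 8.64 and 7.06 TPM in shNT and 10.1 to 16.0 TPM in shLAMP5, and NCAM1 was at 3.50 to 8.41 TPM over all libraries. The more defining NK genes KLRD1, NCR1 and KLRF1 reached at most 0.248, 0.0189 and 0 TPM. The part of these markers in the receptor results was not tested. Fibroblast and packaging cell markers summed to 30.9 to 32.6 TPM in shNT and 27.8 to 40.6 TPM in shLAMP5, mostly the keratin genes KRT18 and KRT8, with COL3A1 at 0 in every library.

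Across the set, receptor values were mostly higher in the shLAMP5 libraries, but no receptor passed the test. Of the 29 receptors tested, 27 had a positive log2 fold change, where 49.3% of all genes tested did. The median was 0.75, against -0.006 over all genes. At an adjusted p of 0.05 limma called 0 of 29 receptors and 0% of all genes, and the smallest adjusted p among the receptors was 0.491. Higher values with an unadjusted p under 0.05 were found for 10 receptors, where 3.72% of all genes qualified, and lower values for 0, where 5.25% did. For 9 receptors every shLAMP5 library exceeded both controls, namely SIGLEC5, SIGLEC7, SIGLEC9, SIGLEC10, CD300A, CD300LF, PILRA, CD36 and FPR1, where 8.25% of all genes did. None of the 29 tested lay below both shNT libraries in all 4 shLAMP5 libraries, where 13.5% of all genes did. These counts include the 3 receptors that were tested only through their shLAMP5 values, of which SIGLEC5 is among the 9. They also include the 6 that reached 1 TPM in 1 shNT library and needed an shLAMP5 library to be tested. Of these, SIGLEC9 and FPR1 are among the 9 and among the 10 with an unadjusted p under 0.05. Among the 20 receptors at 1 TPM or more in all 6 libraries, 19 had positive values, 6 lay above both controls throughout, and the median was 0.78. The counts describe the set and were not tested as such. Of the 13 receptors with a mean of at least 10 TPM over all libraries, 12 had positive values and 3 lay above both shNT libraries throughout.

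**Figure D1:**
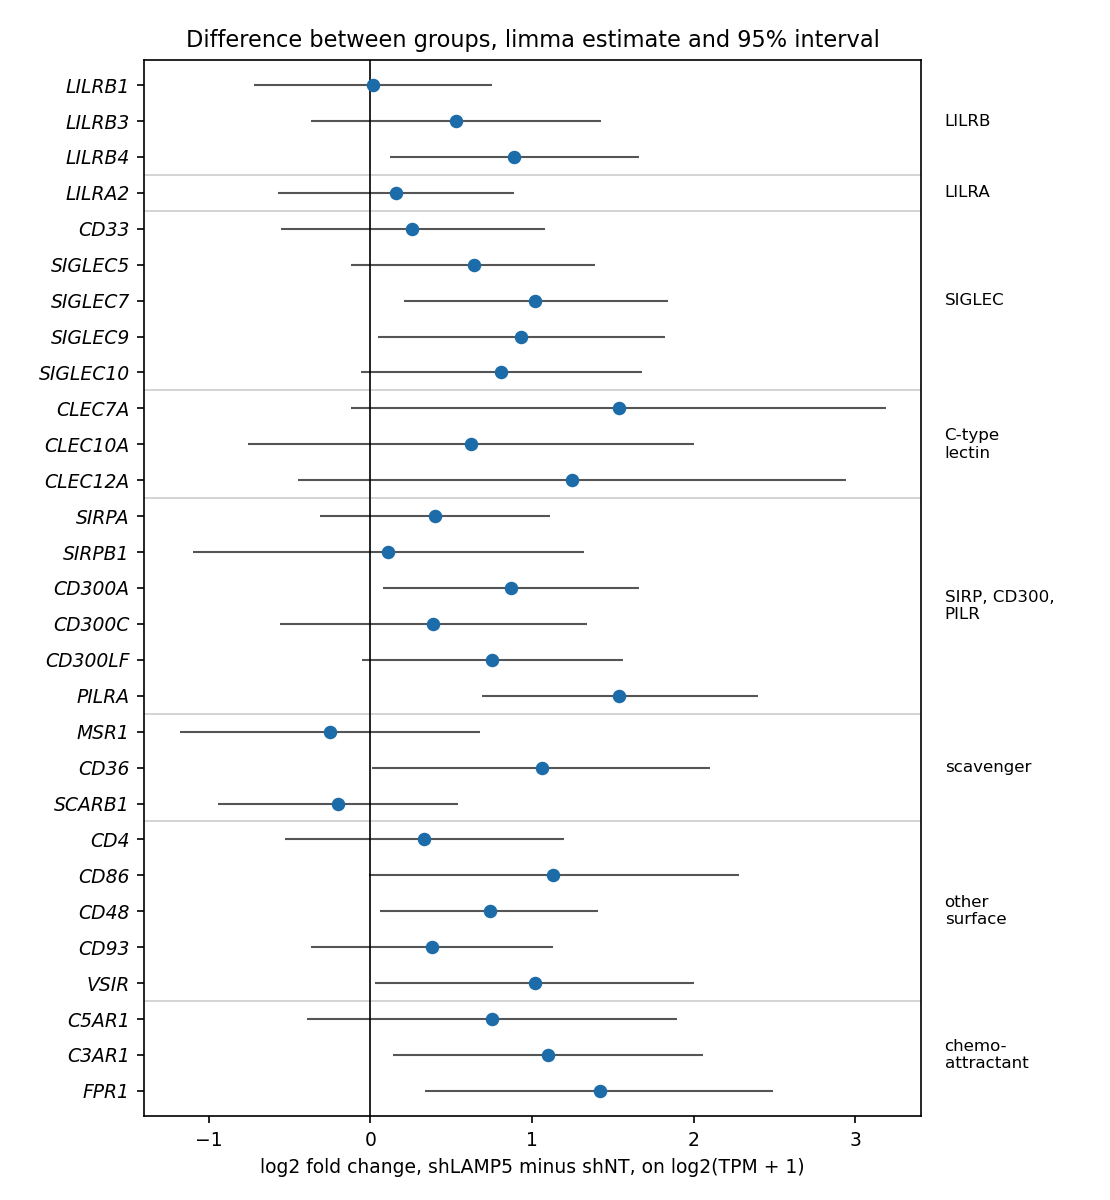
Log2 fold change of each of the 29 tested receptors (horizontal axis, shLAMP5 minus shNT on log2(TPM + 1)), with points for the limma estimate and lines for its 95% interval, grouped by family. Points lie right of 0 for 27 receptors and left of 0 for MSR1 and SCARB1, and many intervals cross 0.

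The summed level of the set was 459 and 502 TPM in shNT 1 and 2, and 705, 441, 995 and 830 TPM in shLAMP5 1 to 4, so that shLAMP5 2 lay below both controls and the other 3 libraries above them. In these bulk libraries, more cells with a receptor and more RNA per cell cannot be told apart, nor can fewer cells and less RNA per cell. CD33, SIRPA, VSIR and SCARB1 were the most abundant, with means over the 6 libraries of 109, 101, 72.9 and 59.5 TPM, and together they made up between 45.2% and 61.2% of the summed level in a library. The next were CD4, CD36 and CD300LF at 41.8, 40.0 and 32.6 TPM. The SD over the 6 libraries was 32.4 TPM for CD33 and 29.8 TPM for SIRPA, more than the gap between these neighbours in the order.

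**Figure D2:**
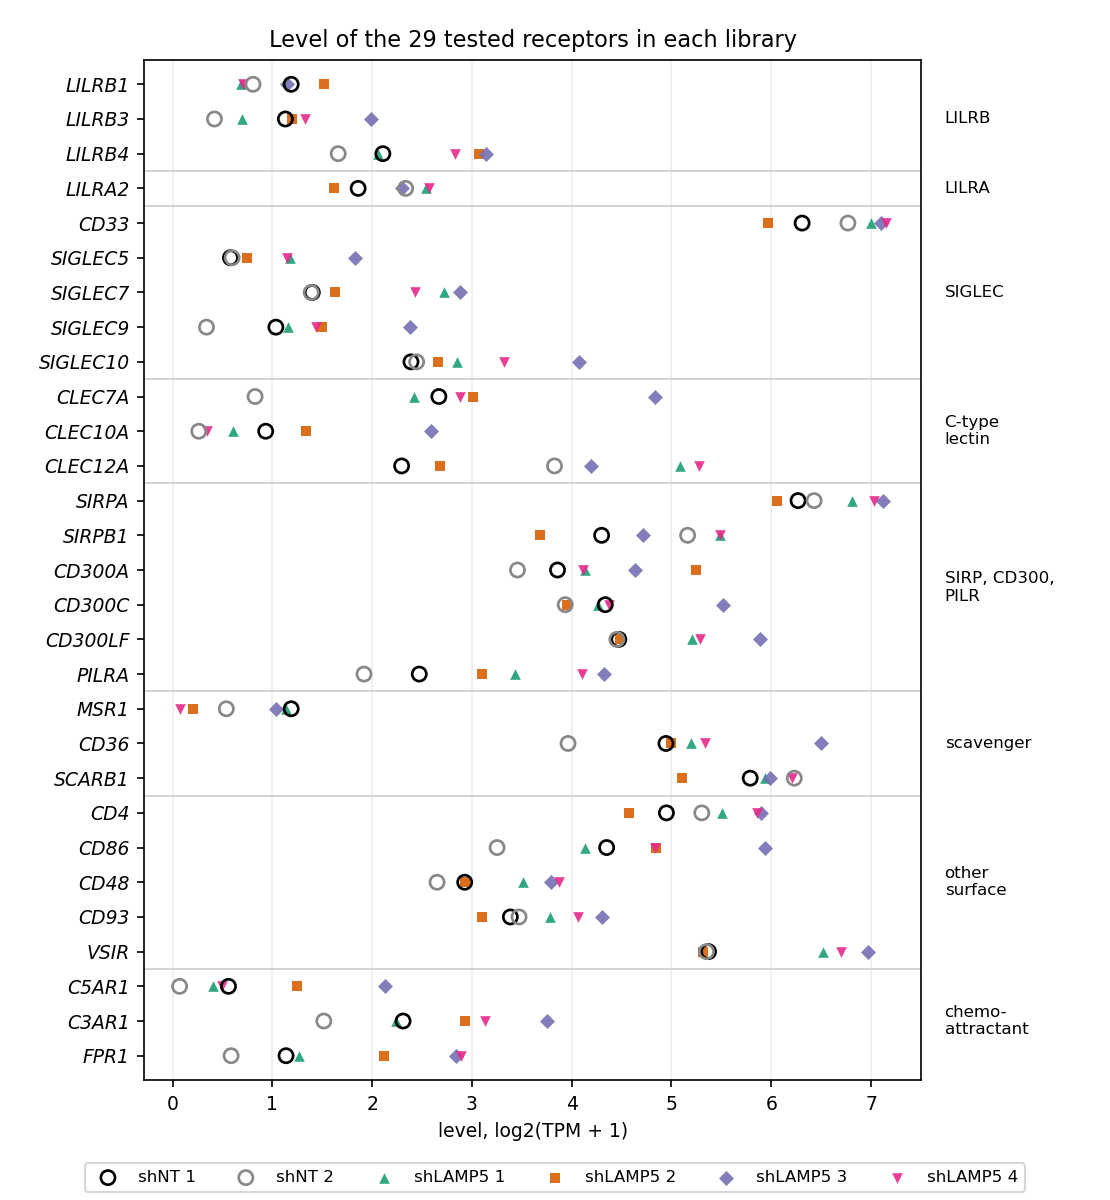
Level of the 29 tested receptors in each library (horizontal axis, log2(TPM + 1)), with open circles for shNT 1 and 2 and filled symbols for shLAMP5 1 to 4. CD33 and SIRPA are furthest right, and shLAMP5 3 is the rightmost symbol for 19 receptors.

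The LILR family was weakly expressed. Its strongest inhibitory member, LILRB4, a receptor of monocytes and of monocytic leukaemia cells, measured 3.31 and 2.16 TPM in shNT 1 and 2, and 3.18, 7.38, 7.80 and 6.12 TPM in shLAMP5 1 to 4. Only shLAMP5 1 lay between the controls, with the other 3 above them (log2 fold change 0.89, SE 0.33, limma adjusted p 0.524). LILRB3 had 1.19 and 0.338 TPM in shNT and between 0.619 and 2.98 TPM in shLAMP5, and its groups overlapped. The log2 fold change was 0.53 (adjusted p 0.709 by limma), 0.17 without shNT 2, 0.30 without shLAMP5 3 and 0.88 without shNT 1. LILRB1, which binds a broad range of MHC class I molecules, had a log2 fold change of 0.015, a direction that turned without shNT 2 (-0.18), shLAMP5 2 (-0.15) or shLAMP5 3 (-0.028). LILRB2, a further MHC class I receptor, was too low to be tested, at 1.16 and 0.826 TPM in shNT and 0.558, 0.0786, 0.704 and 0.760 TPM in shLAMP5 1 to 4. All 4 shLAMP5 values of LILRB2 lay below both controls.

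Of the activating LILR genes, LILRA2 alone was tested, at 2.63 and 4.05 TPM in shNT and 4.81, 2.08, 3.93 and 4.94 TPM in shLAMP5 1 to 4 (log2 fold change 0.16, adjusted p 0.911 by limma). The shLAMP5 values ran from below the lower control to above the higher one, and the log2 fold change ranged from -0.078 without shNT 1 to 0.40 without shNT 2, with 0.37 without shLAMP5 2. LILRA1, LILRA5 and LILRA6 stayed at or below 0.996, 0.754 and 0.438 TPM. LILRA6 and LILRB3 are near-identical in their extracellular part, so that reads may be split between them and both values are uncertain.

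The SIGLEC genes, which encode sialic acid receptors, most of the listed ones with inhibitory tails, split into an abundant CD33 and several low members. CD33, the target of antibody drugs in this leukaemia, measured 78.3 and 108 TPM in shNT 1 and 2, and 127, 61.7, 136 and 141 TPM in shLAMP5 1 to 4. Without shLAMP5 2, the lowest library of all, the shLAMP5 mean was 135 ± 6.92 TPM (SD, n = 3) and the log2 fold change 0.54, against 0.26 (limma adjusted p 0.858) with it. The value was 0.50 without shNT 2, but 0.033 without shNT 1, 0.15 without shLAMP5 4 and 0.17 without shLAMP5 3.

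SIGLEC7, an inhibitory receptor of monocytes and natural killer cells, measured 1.64 and 1.62 TPM in shNT 1 and 2, and 5.60, 2.10, 6.39 and 4.39 TPM in shLAMP5 1 to 4. Groups did not overlap, and shLAMP5 2 was the closest to the controls (log2 fold change 1.02, SE 0.35, limma adjusted p 0.520). SIGLEC10, a receptor of CD24 and other sialylated proteins, measured 4.24 and 4.45 TPM in shNT, and 6.20, 5.34, 15.8 and 9.03 TPM in shLAMP5 1 to 4. Its groups did not overlap either, and shLAMP5 3 was the highest (log2 fold change 0.81, SE 0.38, limma adjusted p 0.576, and 0.53 without shLAMP5 3).

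SIGLEC9 had 1.05 and 0.266 TPM in shNT and 1.23 to 4.21 TPM in shLAMP5, a log2 fold change of 0.93 (adjusted p 0.541 by limma), which was 0.58 without shNT 2 and 1.28 without shNT 1. SIGLEC5 had 0.495 and 0.513 TPM in shNT and 0.681 to 2.56 TPM in shLAMP5 (log2 fold change 0.64, adjusted p 0.598 by limma). SIGLEC1, the macrophage adhesion receptor sialoadhesin, which lacks an inhibitory motif, was at 0.193 and 0.124 TPM in shNT and between 0.611 and 1.17 TPM in shLAMP5, too low to be tested.

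Among C-type lectins, CLEC7A and CLEC12A had wide spreads within each group. CLEC7A, the beta-glucan receptor dectin-1, measured 5.36 and 0.774 TPM in shNT 1 and 2, and 4.35, 7.05, 27.6 and 6.39 TPM in shLAMP5 1 to 4. The controls differed from each other by more than the distance between shNT 1 and 3 of the shLAMP5 libraries, and shLAMP5 3 stood far above all others. The log2 fold change was 1.54 (SE 0.72, limma adjusted p 0.576), 0.62 without shNT 2, 2.46 without shNT 1 and 1.02 without shLAMP5 3.

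CLEC12A, an inhibitory lectin found on myeloid leukaemia stem cells, had another order. It measured 3.91 and 13.2 TPM in shNT 1 and 2, and 33.0, 5.40, 17.3 and 37.8 TPM in shLAMP5 1 to 4. Here shNT 1 and shLAMP5 2 were the lowest libraries, and shLAMP5 1 and 4 the highest. The log2 fold change was 1.25 (SE 0.73, limma adjusted p 0.644), 0.48 without shNT 1, 2.01 without shNT 2 and 1.79 without shLAMP5 2.

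CLEC10A, a receptor for galactose-type glycans, lay at or under 1.52 TPM in each library but shLAMP5 3, which had 5.01 TPM (log2 fold change 0.62, adjusted p 0.792 by limma, 0.29 without shNT 2 and 0.96 without shNT 1). CLEC4A, an inhibitory lectin, was at 2.15 TPM in shLAMP5 2 and at most 0.704 TPM elsewhere, and was not tested. The activating lectins CLEC4E (Mincle) and CLEC5A, which use the ITAM adaptors, reached at most 0.138 and 0.12 TPM, and CLEC4D is listed at 0 in every library.

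In the SIRP, CD300 and PILR group, PILRA had the smallest p of all receptors in the set. PILRA, an inhibitory receptor for sialylated O-glycans, measured 4.55 and 2.78 TPM in shNT 1 and 2, and 9.76, 7.58, 19.0 and 16.2 TPM in shLAMP5 1 to 4. All 4 shLAMP5 libraries lay above both controls, with means of 3.67 ± 1.25 TPM (SD, n = 2) and 13.1 ± 5.36 TPM (SD, n = 4). PILRA had a log2 fold change of 1.54 (SE 0.37) with a 95% interval from 0.69 to 2.40. Its limma p was 0.00318 unadjusted and 0.491 adjusted, and the fold change ranged from 1.27 without shNT 2 to 1.82 without shNT 1.

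CD300A, an inhibitory receptor for phosphatidylserine on dying cells, measured 13.5 and 9.98 TPM in shNT 1 and 2, and 16.5, 37.0, 23.8 and 16.3 TPM in shLAMP5 1 to 4. Groups did not overlap, and shLAMP5 2 was the highest library (log2 fold change 0.87, SE 0.34, limma adjusted p 0.534, and 0.63 without shLAMP5 2). CD300LF, a further inhibitory lipid receptor, measured 21.2 and 20.9 TPM in shNT, and 35.9, 21.4, 58.0 and 37.9 TPM in shLAMP5 1 to 4. Groups did not overlap, but shLAMP5 2 was just above shNT 1 (log2 fold change 0.75, SE 0.35, limma adjusted p 0.576, and 1.00 without shLAMP5 2). CD300C, an activating member, had 19.2 and 14.3 TPM in shNT and 14.5 to 44.7 TPM in shLAMP5, with overlapping groups (log2 fold change 0.39, adjusted p 0.809 by limma). Its value was 0.059 without shLAMP5 3, 0.19 without shNT 2, 0.59 without shNT 1 and 0.58 without shLAMP5 2. CD300E, an activating receptor of mature monocytes, stayed at or below 0.396 TPM.

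SIRPA, the inhibitory receptor of the ligand CD47, measured 76.1 and 85.2 TPM in shNT 1 and 2, and 111, 65.6, 138 and 130 TPM in shLAMP5 1 to 4. Only shLAMP5 2 lay below the controls, and the log2 fold change was 0.40 (limma adjusted p 0.718) with it and 0.64 without it. SIRPB1, an activating relative that pairs with the TYROBP adaptor, measured 18.7 and 34.8 TPM in shNT, and 43.9, 11.8, 25.3 and 43.7 TPM in shLAMP5 1 to 4. Its log2 fold change of 0.11 (limma adjusted p 0.969) became -0.32 without shNT 1 and -0.11 without shLAMP5 1 or shLAMP5 4, and 0.54 without shNT 2 and 0.50 without shLAMP5 2.

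Grouped by signalling role, a grouping made after the values were seen, 13 of the 15 inhibitory members were tested, all 13 with positive values from 0.015 to 1.54 (median 0.81). Of the 10 adaptor-dependent activating members 3 were tested, LILRA2, SIRPB1 and CD300C, with values of 0.16, 0.11 and 0.39, each of which moved with 1 library left out, as given with these genes. No test of this difference was made, and its activating side rests on these 3 genes. The activating side leaves out CLEC7A, a tested member that was counted in neither group. Its value was 1.54, with 0.62 without shNT 2 and 2.46 without shNT 1. Among relatives outside the set, the activating TREM1, CD300LB and TREM2 had values of 1.12, 0.76 and 0.51 (limma adjusted p 0.613, 0.606 and 0.674). TREM1 was 0.0094 without shNT 2, and CD300LB and TREM2 were 0.43 and 0.27 without shLAMP5 3. A further 2 activating relatives, SIGLEC14 and PILRB, did not share one pattern. SIGLEC14, whose ligand-binding part is near-identical to that of SIGLEC5, was more abundant than SIGLEC5 in every library, at 13.3 and 9.55 TPM in shNT 1 and 2, and 28.4, 18.3, 60.0 and 27.5 TPM in shLAMP5 1 to 4 (log2 fold change 1.36, SE 0.42, limma adjusted p 0.505). Its groups did not overlap. PILRB, the activating partner of PILRA, was at 45.5 and 47.5 TPM in shNT and 49.3, 94.0, 44.3 and 38.6 TPM in shLAMP5 1 to 4 (log2 fold change 0.19, adjusted p 0.901 by limma). Reads of such paired receptors may be split between the 2 genes, and the values of SIGLEC5 and SIGLEC14, PILRA and PILRB, and SIRPA and SIRPB1 are uncertain to that extent.

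**Figure D3:**
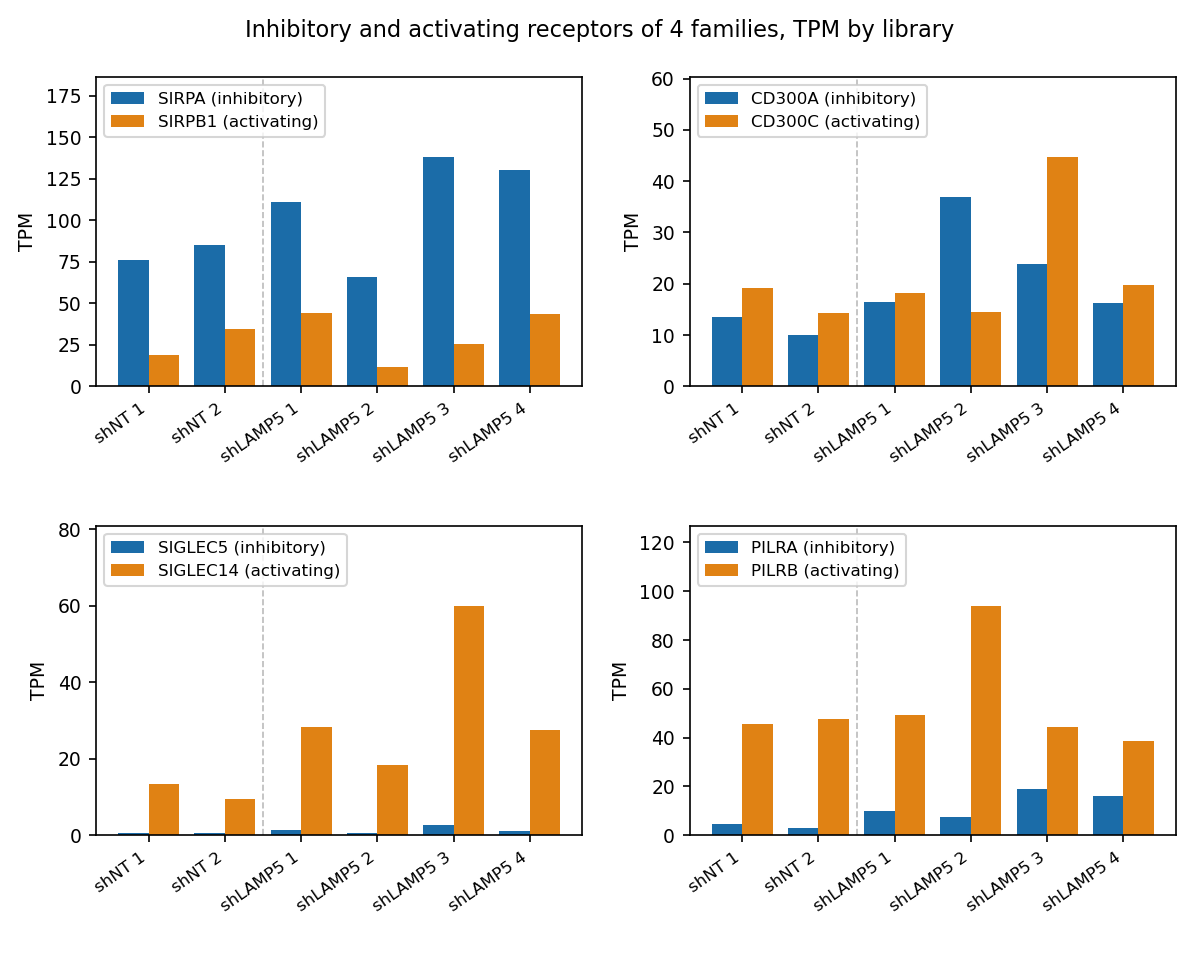
TPM (vertical axis, from 0) of an inhibitory receptor (blue) and an activating relative (orange) in each of the 6 libraries, for 4 families, with a dashed line between the shNT and shLAMP5 libraries. SIRPA exceeds SIRPB1 and SIGLEC14 exceeds SIGLEC5 in every library, and PILRB has 1 high library, shLAMP5 2 at 94.0 TPM.

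Scavenger and clearance receptors showed no common direction. CD36, a receptor for oxidised lipoproteins and long-chain fatty acids, measured 29.8 and 14.6 TPM in shNT 1 and 2, and 35.7, 30.9, 89.6 and 39.5 TPM in shLAMP5 1 to 4. Groups did not overlap, though shNT 1 and shLAMP5 2 were close, and shLAMP5 3 was far above the rest (log2 fold change 1.06, SE 0.45, limma adjusted p 0.552). That value was 0.56 without shNT 2, 1.55 without shNT 1 and 0.72 without shLAMP5 3. SCARB1, the high-density lipoprotein receptor, had 54.3 and 74.1 TPM in shNT and 33.4 to 72.7 TPM in shLAMP5 (log2 fold change -0.20, adjusted p 0.885 by limma), 0.034 without shLAMP5 2, 0.020 without shNT 2 and -0.42 without shNT 1. MSR1, the class A macrophage scavenger receptor, did not exceed 1.28 TPM (log2 fold change -0.25, adjusted p 0.884 by limma, 0.072 without shNT 1 and -0.58 without shNT 2).

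Receptors of tissue macrophages were near the lower limit of the table. CD163, which takes up haemoglobin bound to haptoglobin, had 0.731 and 0.93 TPM in shNT and between 0.0726 and 1.07 TPM in shLAMP5. MERTK, a kinase receptor for the apoptotic cell bridge proteins GAS6 and protein S, was at 0.496 and 0.212 TPM in shNT and 0.412 to 0.851 TPM in shLAMP5. STAB1, which clears modified lipoproteins and cell remnants, was at 0.193 and 0.0906 TPM in shNT and 0.112 to 0.714 TPM in shLAMP5. None of these was tested.

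The other surface proteins were all tested and all had positive values, and none passed. VSIR, which encodes the checkpoint protein VISTA, measured 40.4 and 39.8 TPM in shNT 1 and 2, and 90.7, 38.7, 124 and 103 TPM in shLAMP5 1 to 4. Here shLAMP5 2 lay just below the controls and the other 3 at 106 ± 16.9 TPM (SD, n = 3), so that the log2 fold change was 1.02 (SE 0.42, limma adjusted p 0.544) with it and 1.37 without it. CD86, a costimulatory ligand for T cells, measured 19.4 and 8.53 TPM in shNT, and 16.5, 27.8, 60.1 and 27.6 TPM in shLAMP5 1 to 4. One shLAMP5 library lay between the controls, and the log2 fold change of 1.13 (SE 0.49, limma adjusted p 0.554) was 0.58 without shNT 2.

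CD48, a ligand of the receptor CD244, had 6.61 and 5.28 TPM in shNT and 10.4, 6.60, 12.9 and 13.6 TPM in shLAMP5 1 to 4 (log2 fold change 0.74, SE 0.29, limma adjusted p 0.534). CD4, which monocytes carry at low density, had 29.9 and 38.5 TPM in shNT and 22.9 to 58.5 TPM in shLAMP5 (log2 fold change 0.33, adjusted p 0.821 by limma), and CD93 had 9.45 and 10.1 TPM in shNT and 7.57 to 18.8 TPM in shLAMP5 (0.38, limma adjusted p 0.762). In both CD4 and CD93, shLAMP5 2 was the lowest library, and without it the values were 0.63 and 0.62. Without shLAMP5 3 they were 0.19 and 0.21, and CD4 was 0.16 without shNT 1 and 0.51 without shNT 2.

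Chemoattractant receptors, which guide phagocytes towards complement fragments and bacterial peptides, were low and had positive values in all 3 tested. FPR1, the receptor for formylated peptides, measured 1.20 and 0.502 TPM in shNT 1 and 2, and 1.41, 3.35, 6.17 and 6.43 TPM in shLAMP5 1 to 4. Its groups did not overlap, with shLAMP5 1 close to shNT 1 (log2 fold change 1.42, SE 0.47, limma adjusted p 0.505). C3AR1, the receptor of the complement fragment C3a, measured 3.96 and 1.86 TPM in shNT, and 3.73, 6.62, 12.5 and 7.74 TPM in shLAMP5 1 to 4, with shLAMP5 1 between the controls (log2 fold change 1.10, SE 0.41, limma adjusted p 0.524, and 0.70 without shNT 2). C5AR1, the receptor of C5a, had 0.475 and 0.0504 TPM in shNT and 0.323 to 3.36 TPM in shLAMP5 (log2 fold change 0.75, adjusted p 0.679 by limma). FPR2 is listed at 0 in both shNT libraries and in shLAMP5 2, and reached at most 0.366 TPM in the others.

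The library shLAMP5 2 did not lie on one side of the controls for all receptors. In shLAMP5 2, 17 of the 29 lay above both shNT libraries, where 26.8% of all genes did, among them LILRB4, CD300A, CLEC7A, CD86, C3AR1 and FPR1. Another 9 lay below both, where 57.2% of all genes did, and these included the abundant CD33, SIRPA, VSIR, CD4 and SCARB1. The other 3, CD300C, CD48 and CLEC12A, lay between the controls. In shLAMP5 3, 24 of the 29 lay above both shNT libraries, where 42.8% of all genes did, and it was the highest of the 6 for 19 of 29 receptors, where it was highest for 25.4% of all genes. Between the controls, shNT 1 was above shNT 2 for 19 of 29, where 43.0% of all genes had that order. The library shNT 2 was the lowest for 16 of 29, where it was lowest for 14.9% of all genes. The library shLAMP5 2 was the lowest for 8 of 29, LILRA2, CD33, SIRPA, SIRPB1, SCARB1, CD4, CD93 and VSIR, where it was lowest for 44.1% of all genes. Leaving out shLAMP5 2, the 3 remaining knockdown libraries exceeded both controls for 16 of the 29, where 22.2% of all genes did.

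**Figure D4:**
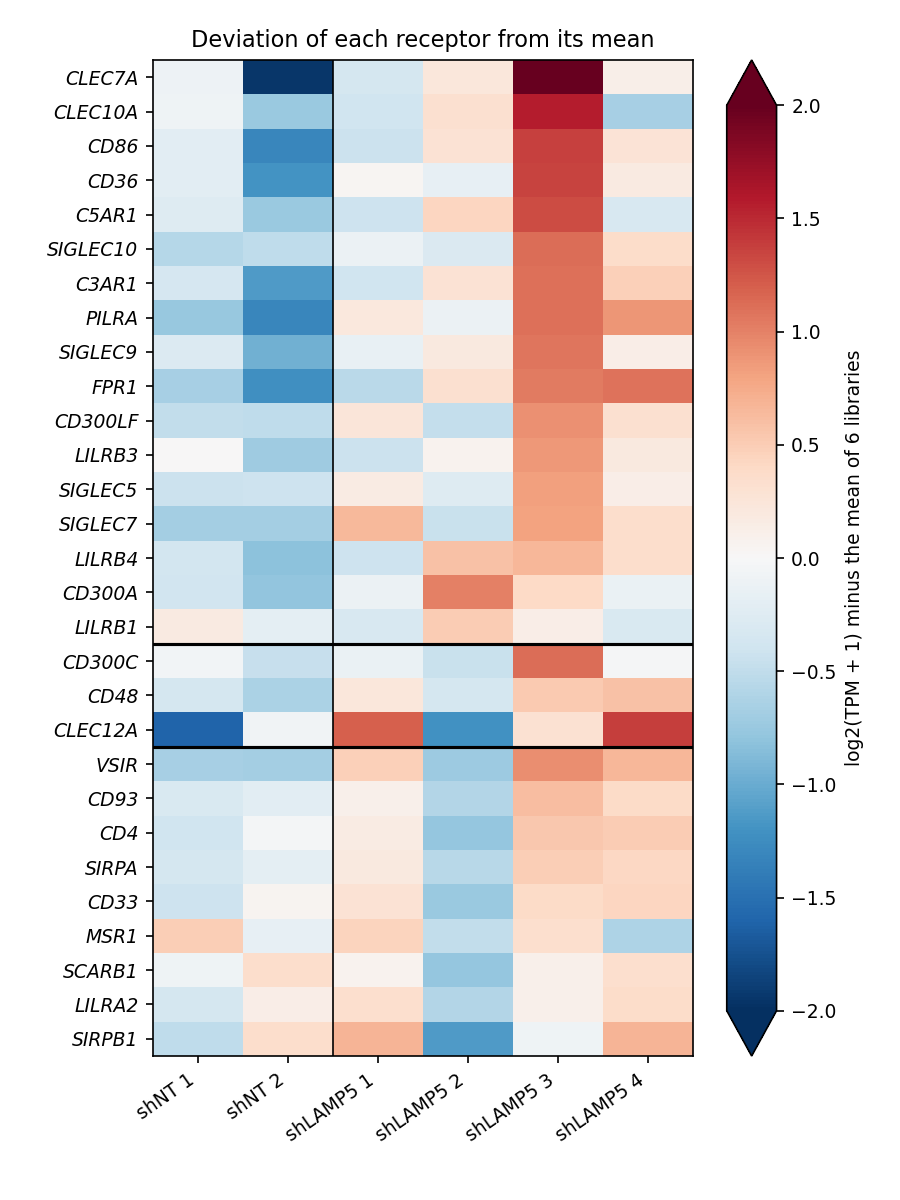
Deviation of each tested receptor (rows) from its own mean over the 6 libraries (columns), in log2(TPM + 1), red above and blue below, ordered by whether shLAMP5 2 lay above, between or below the 2 shNT libraries (black lines). The column of shLAMP5 3 is red for most receptors, and the column of shLAMP5 2 is of mixed colour in the upper rows and blue in the lower ones.

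The partners of these receptors were described from lists of ligands, adaptors and related genes, and none of their members passed the test in either direction. Of 13 ITAM adaptor and kinase genes, all tested, 10 had positive values, where 49.3% of all genes did. Their median was 0.39. In all 4 shLAMP5 libraries 4 of the 13 lay above both controls, where 8.25% of all genes did, and 1, MALT1, lay below both, where 13.5% did. FCER1G measured 53.4 and 26.8 TPM in shNT 1 and 2, and 124, 72.9, 220 and 147 TPM in shLAMP5 1 to 4 (log2 fold change 1.76, SE 0.44, limma adjusted p 0.491). TYROBP measured 261 and 276 TPM in shNT, and 692, 363, 829 and 710 TPM in shLAMP5 1 to 4. Both adaptors were lowest in shLAMP5 2 within their group and above the controls throughout. MALT1 and BTK, a scaffold and a kinase further downstream, had values of -0.13 and -0.064 (limma adjusted p 0.864 and 0.963). The 4 phosphatase genes that serve ITIM receptors had a median of 0.19, with INPPL1 at 0.34, PTPN6 at 0.28 and INPP5D at -0.12.

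Of 18 ligand genes 16 were tested, 13 with positive values, where 49.3% of all genes had them, and a median of 0.40. In all 4 shLAMP5 libraries 4 of the 16 lay above both controls, where 8.25% of all genes did, and 0 below both, where 13.5% did. HLA-E, a ligand of natural killer receptors, averaged 13.5 ± 0.231 TPM over the 2 controls and 24.8 ± 6.44 TPM over the 4 knockdown libraries (mean ± SD, log2 fold change 0.80, adjusted p 0.505 by limma). HP, which encodes haptoglobin, whose complex with haemoglobin is the CD163 ligand, measured 6.03 and 16.4 TPM in shNT and 55.8, 9.70, 36.7 and 66.5 TPM in shLAMP5 1 to 4 (log2 fold change 1.67, adjusted p 0.554 by limma). GAS6 and HLA-B had values of -0.23 and -0.13, and HLA reads may be split between similar genes.

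Of 17 sialic acid enzyme genes, which make or remove SIGLEC ligands, 12 had positive values, where 49.3% of all genes did, and the median was 0.13. In all 4 shLAMP5 libraries 3 of the 17 lay above both controls, where 8.25% of all genes did, and 1, ST3GAL4, below both, where 13.5% did. ST6GALNAC6 and ST3GAL5 had 0.72 and 0.74, and ST3GAL4 and ST3GAL6 had -0.56 and -0.36 (limma adjusted p 0.534 to 0.814 over these 4). Of 16 shedding and uptake genes 14 were tested, 13 with positive values, where 49.3% of all genes had them, and a median of 0.20. In all 4 shLAMP5 libraries 2 of the 14 lay above both controls, where 8.25% of all genes did, and 1 below both, where 13.5% did. CDC42, a small GTPase of the actin cytoskeleton, was the 1 with a negative value, at 208 and 203 TPM in shNT 1 and 2, and 107, 85.5, 127 and 105 TPM in shLAMP5 1 to 4 (log2 fold change -0.96, SE 0.20, limma adjusted p 0.448). Its groups did not overlap. ARPC3, of the actin-nucleating complex, and ABCA1, a lipid exporter, had 0.54 and 0.78.

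Of 40 related receptors outside the set 23 were tested, and 22 had positive values, where 49.3% of all genes did, with a median of 0.52. For 2 of the 23 every shLAMP5 library exceeded both controls, a share near the 8.25% of all genes. SIGLEC14 had the smallest p, and SCARB2, a lysosomal membrane protein of the CD36 family, had 0.77 (SE 0.31, limma adjusted p 0.534). CLEC2D, the 1 with a negative value, had -0.084 (limma adjusted p 0.957).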

How the data were processed

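The authors deposited 1 table of 39771 Ensembl genes by 6 libraries, and its values were taken as TPM from their scale. Kallisto and the build hg19 are named, per the submitters' processing notes, with version, transcript set and filters not given in the sources used here. Since TPM does not record read numbers, depth is unknown, and no count test or counting interval was possible. Rows were given symbols by Ensembl identifier (29895 rows matched), and each matched receptor had 1 row. Groups came from the titles.

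Genes that reached 1 TPM in 2 or more libraries were tested on log2(TPM + 1). Limma 3.58.1 (R 4.3.3) was fitted with group alone and its mean-variance trend option, p-values were adjusted by Benjamini-Hochberg over every gene tested, and 0.05 was the threshold. The fit was tested on simulated data. All columns were used (0 left out). Alternatives were pseudocounts of 0.1 and 0.5, 3 other filters, 2 scalings, summed rows, library weights, an adjusted p threshold of 0.1, omission of each library in turn, and a block on replicate number. Promoter windows came from RefSeq (GRCh38.p14). Tables and figures used Python 3.11.15, pandas 2.3.3 and matplotlib 3.10.9. The members and lists were chosen with earlier results of these data known. Text named LAMP5, any member and, per partner list, the 2 genes with the smallest p in each direction, and per marker list the gene with the highest mean. Other genes named were chosen after their values were seen.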

Additional observations from a re-analysis of the deposited data

Results flagged for a closer look

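In a group of 4 libraries, a library was marked when its gap to the nearest other took up more of the group's range than Dixon's 95% critical value allows. Of 30 genes examined, LAMP5 and the 29 tested receptors, 2 met this among the shLAMP5 libraries, and chance marks about 1 in 20 groups. CLEC7A was at 27.6 TPM in shLAMP5 3, with a gap of 0.884 of the range. CD36 was at 89.6 TPM in the same library, with a gap of 0.854 of the range.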

How the results depend on the processing

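The alternatives were run for LAMP5, the number of genes called, the counts and median over the receptors and each tested receptor. They were not run for the partner and marker lists, the promoter motifs, the role groups or the counts of library order, and CLEC10A and C5AR1 gave no value without shLAMP5 2 or without shLAMP5 3. The stricter filters, 1 TPM in all 6 libraries and 5 TPM in 2, left 20 and 21 receptors. Limma called 0 genes as reported, 14 with no filter, 210 with library weights and 16 with the replicate block. The block fit rests on the libraries numbered 1 and 2 alone, because shLAMP5 3 and shLAMP5 4 have no partner in their blocks. Library weights gave shLAMP5 2 a weight of 0.193 and shLAMP5 4 one of 3.407. They moved the LAMP5 value from -1.54 to -1.40 (limma adjusted p 0.252 and 0.0302). With these weights 3 receptors were called, VSIR at 1.27, PILRA at 1.71 and SIGLEC7 at 1.13 (limma adjusted p 0.0380, 0.0392 and 0.0464). With a library left out, the receptors with all remaining shLAMP5 libraries above the remaining shNT libraries numbered 9 to 18 against 9, with 14 without shLAMP5 1, 16 without shLAMP5 2 and 18 without shNT 1, counts that fewer libraries make easier to reach. Receptors with higher values at an unadjusted limma p under 0.05 numbered 10 as reported, where 486 of all 13072 genes qualified. The count over all genes moved with the setting too, and is given in brackets. Receptors numbered 16 without shLAMP5 2 (1351 of 12769), 3 without shLAMP5 3 (292 of 12815) and 4 without shLAMP5 4 (321 of 12919). They numbered 19 with library weights (1691 of 13072), 3 with the replicate block (155 of 13072) and 4 with no filter (613 of 27680). The median over receptors was 0.53 to 0.88 with a library left out and 0.40 with no filter, which tested 42 receptors, 36 of them positive.

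Of the 29 receptors, 8 changed sign under at least 1 alternative. LILRB1 was -0.011 with a pseudocount of 0.1, -0.073 with quantile normalization and -0.23 with library weights, and ranged from -0.18 to 0.21 with a library left out. SCARB1 was 0.065 with library weights and -0.42 to 0.034 with a library left out. The leave-one-out range was -0.078 to 0.40 for LILRA2, -0.58 to 0.072 for MSR1 and -0.32 to 0.54 for SIRPB1. The cause was not tested.

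The replicate numbers in the titles are not known to pair libraries. Over genes, the deviation of shNT 1 from the shNT mean and that of shLAMP5 1 from the mean of shLAMP5 1 and 2 had a correlation of -0.55. These libraries thus tended to deviate in opposite directions, and shNT 1 in the direction of shLAMP5 2. The source of this shared variation was not tested. In the replicate block, shLAMP5 3 and shLAMP5 4 each had a block to themselves and added nothing to the estimate. The values with it therefore rest on the libraries numbered 1 and 2 alone. With the replicate block, CD300C was -0.028, CD33 -0.054, CD4 -0.082, LILRA2 -0.017 and SIRPB1 -0.15. The median was then 0.39, and 22 receptors had positive values. Depth is unknown, and values near 1 TPM are the least certain.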
